A study of Mus musculus with 2 samples.

Results

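The cells described here are conventional dendritic cells type 2 (cDC2) of the mouse colon that carry Cd209a, a C-type lectin and a homologue of human DC-SIGN. They were selected by raw counts of unique molecular identifiers (UMIs) in single-cell RNA profiles. A barcode was a member if it had at least 2 Cd209a UMIs and at least 10 of the MHC class II gene H2-Ab1, under 2 of Plet1, under 2 of Xcr1 and Clec9a together, under 3 each of Fscn1, Ly6c2 and Retnla, under 10 of C1qa, C1qb and C1qc together, and none of Cd3d, Cd3e, Cd3g or Ms4a1. In all, 1237 of 8500 barcodes with at least 200 genes and at most 20% mitochondrial UMIs met this rule. Since the rule reads RNA of the same cells, the level of its genes is not a finding.

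The study asked how the long noncoding RNA lncly6c (1700016P04Rik) bears on macrophage differentiation, and it profiled cells of the colonic lamina propria, the connective tissue under the gut epithelium, with a droplet 3′ kit. The animals were male C57BL/6 mice of 6 to 8 weeks under specific pathogen-free housing. One library was labelled wild type and the other lncly6c-deficient, a germline deletion made with CRISPR-Cas9 by cutting outside both exons, so that all cells of the animal lack the gene. How many mice each library holds is not stated in the labels. The file deposited for each library has the other library's genotype in its name. The labels were followed, and if the names were right, every direction between libraries given here would be exchanged. The deleted gene, at chr6:13413337-13415996 of mm10 and annotated as a long intergenic noncoding RNA, had 0 UMIs in the members of either library, so it cannot check the labels. Each group is 1 library, so no test between genotypes was possible, and every interval covers counting error only.

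Dendritic cells take up antigen, present it on MHC class II molecules and, after maturation, carry it to lymph nodes to activate T cells. The cDC2 arm depends on factors such as Irf4 and Klf4, presents mainly to CD4 T cells, and in the gut occurs in forms with and without the integrin Itgae (CD103). C-type lectins such as Cd209a, Clec10a and Mgl2 bind sugars on microbes and host proteins, and Ccl17 and Ccl22 are chemokines that attract T cells carrying Ccr4.

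The libraries differed in size. There were 3020 barcodes with 23384895 UMIs under the wild-type label and 6133 barcodes with 54773076 UMIs under the deficient label, and 7 barcode sequences occurred in both, 1 of them a wild-type-labelled member. Members had a median of 13796 UMIs under the wild-type label and 11504 under the deficient label, with 3.23% and 3.09% mitochondrial UMIs. RNA of plasma cells differed: Jchain, the joining chain of secreted antibody, was found in 4.13% of wild-type-labelled and 33.3% of deficient-labelled members, at 4.12 and 35.6 CPM, the UMIs of a gene scaled to a fixed total of UMIs in each group so that groups of unlike size can be compared. After thinning every member to 3000 UMIs, which left out 7 members in each library, those shares were 1.58% and 10.4%. The whole plasma cell list summed to 122 and 559 CPM in members and to a like 121 and 551 CPM in cDC1. The transcript Gm42418 stood at 13340 CPM in wild-type-labelled and 4334 CPM in deficient-labelled members, and Lars2 at 394 and 181 CPM.

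The label was checked against markers that the rule did not use. Clec10a, a galactose-binding lectin, stood at 246 CPM in wild-type-labelled and 250 CPM in deficient-labelled members, against 63.4 and 74.5 CPM in Plet1 cDC2 and 19.4 and 18.1 CPM in the cross-presenting cDC1, groups selected by UMI rules of the same kind. Mgl2, the related lectin known as CD301b, stood at 658 and 703 CPM in members, 440 and 377 CPM in Plet1 cDC2, and 43.9 and 67.2 CPM in cDC1. Its level in macrophages was 349 and 237 CPM, so Mgl2 was not limited to dendritic cells. Cd209d, a neighbour of Cd209a on chromosome 8, stood at 89.1 and 69.5 CPM in members and 45.7 and 10.5 CPM in Plet1 cDC2. These 3 genes were at 0 to 11.8 CPM in B cells and T cells, which should lack them. Ccl17 behaved differently: mature dendritic cells, selected on Fscn1 and Ccr7, had 2600.0 and 1279 CPM against 472 and 741 CPM in members, and the B cells of the wild-type-labelled library had 452 CPM, all from 1 of 45 cells. So Clec10a, Mgl2 and Cd209d, but not Ccl17, were highest in the cells that carry the label. Flt3, the dendritic cell growth factor receptor, stood at 114 and 82.0 CPM in members, and the transcription factor Zbtb46 at 80.7 and 81.4 CPM. Flt3 was much the same, 104 and 79.3 CPM, in barcodes that met every other condition with 0 Cd209a UMIs. The cDC2 identity list, which holds both genes, summed to 2746 and 2809 CPM in members. It was lower in Plet1 cDC2 and cDC1 but higher in cells selected on Ly6c2 as monocytes, 3035 and 2978 CPM, and in macrophages, 3411 and 3507 CPM.

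**Figure D1:**
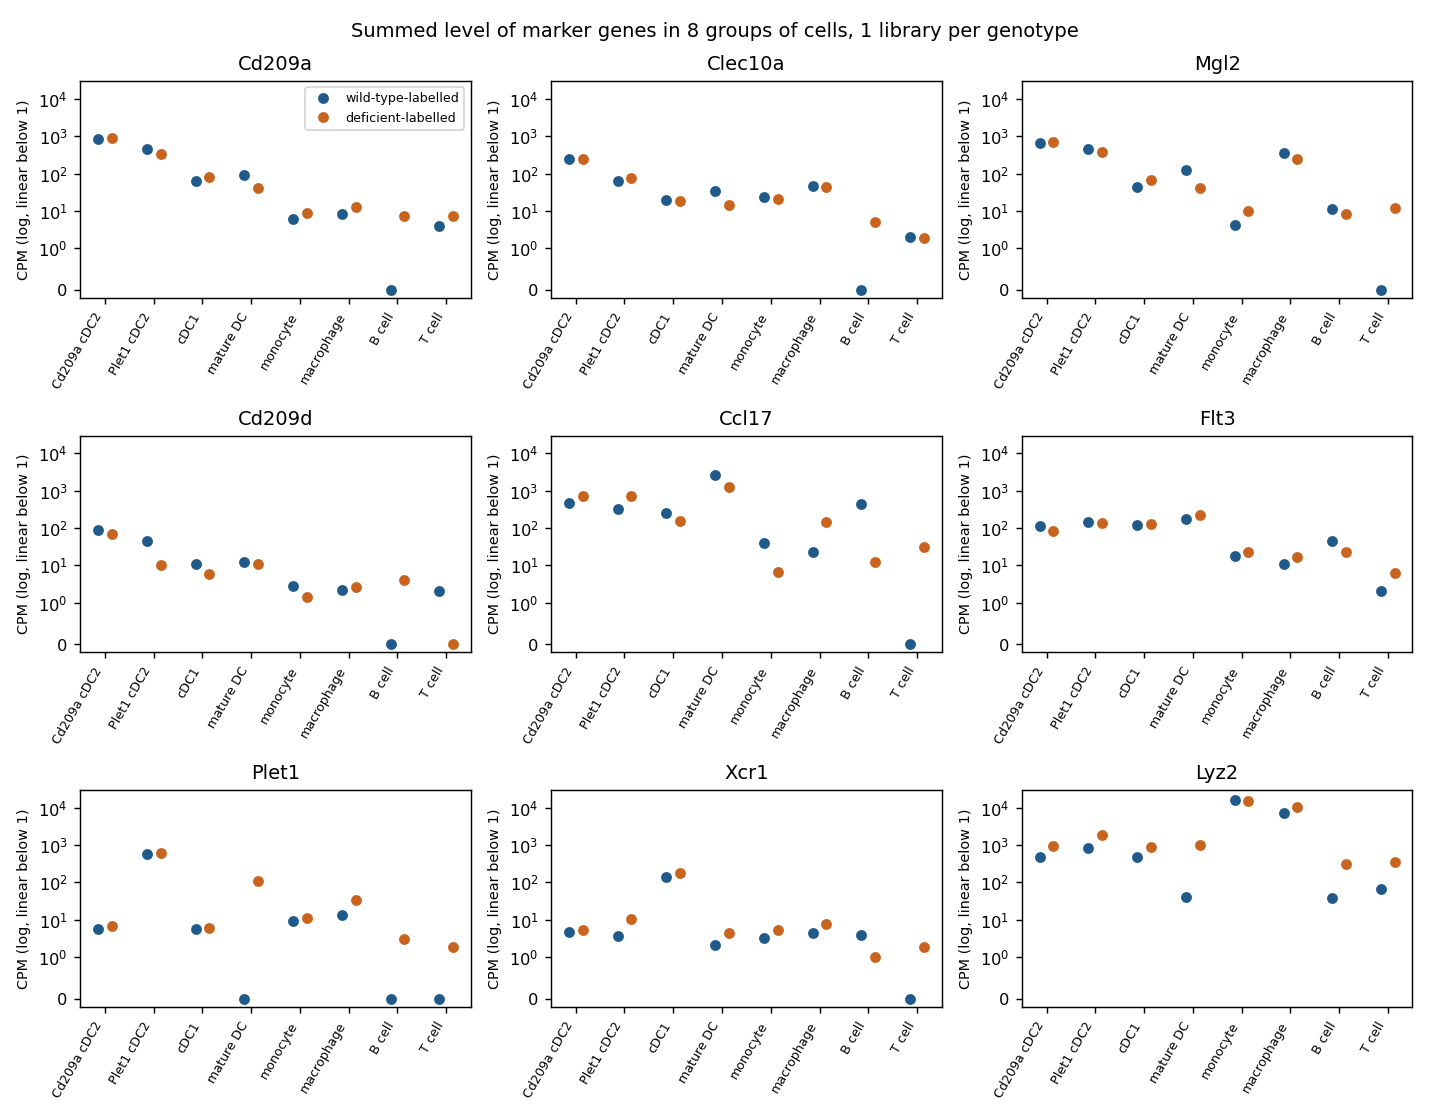
Level of 9 genes (CPM of summed UMIs, log axis, linear below 1) in 8 groups of cells, with 1 point per library and no error bars. Clec10a and Cd209d are highest in Cd209a cDC2 in both libraries, while Ccl17 is highest in mature dendritic cells.

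Per cell, members carried a median of 9 Cd209a UMIs in the wild-type-labelled library and 8 in the deficient-labelled library, with maxima of 91 and 85. At least 1 Clec10a UMI was seen in 69.3% and 67.6% of members, and at least 1 Mgl2 UMI in 66.7% and 70.7%. Ccl17 was seen in 40.3% and 52.6% of members, with single cells of up to 226 and 280 UMIs, so cells varied widely in it. At the edge of the rule, the 35 wild-type-labelled and 99 deficient-labelled members with exactly 2 Cd209a UMIs had 221 and 183 CPM of Clec10a. Barcodes that met every other condition with 1 Cd209a UMI, 51 and 146 of them, had 114 and 100 CPM. Those with 3 or more had 248.6 and 257.6 CPM, so Clec10a was graded across the threshold rather than stepped. Clec10a lies at chr11:70156197-70170834 and Mgl2 at chr11:70130329-70137550 of mm10. Of the 100-base windows of the whole Clec10a transcript, 4.08% also occur in Mgl2, and reads within those windows are hard to assign. Whether these lie at the 3′ end, from which the kit reads, was not examined. Cd209a, at chr8:3743397-3748984, shared no such window with Cd209d.

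Members made up 387 of 2610 wild-type-labelled barcodes, 14.8% (Clopper-Pearson 95% interval 13.5 to 16.2), and 850 of 5890 deficient-labelled barcodes, 14.4% (13.5 to 15.4). Among cells of the 4 dendritic groups, they were 64.1% (60.1 to 67.9) and 60.4% (57.8 to 62.9). Those intervals overlapped. With barcodes under 2000 UMIs left out, the shares were 19.4% (17.7 to 21.2) and 16.3% (15.3 to 17.3), intervals that did not overlap. That filter left 1989 of 2610 and 5217 of 5890 barcodes, so it removed a larger part of the wild-type-labelled library.

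Against Plet1 cDC2, the Cd209a cDC2 had more RNA of Ccr2, Mrc1, Il1rl1 and Cd163 and less of Il22ra2, Itgae, Epcam and Ly75. The monocyte and macrophage lists showed no such split: 2 of 13 monocyte genes were higher and 2 lower, as were 2 and 2 of 12 macrophage genes. Some other lists went one way. Of 15 chemokines, 4 were higher and none lower, and of 11 Plet1 cDC2 marker genes, 5 were lower and none higher. Of 4 epithelial genes, 1 was lower. Of 9684 genes with at least 50 UMIs, 284 (2.93%) were over 2-fold higher in both libraries and 130 (1.34%) over 2-fold lower. Since the groups were cut on RNA of the same cells, these values are a description. Ccr2, the receptor that brings monocytes out of the marrow, stood at 195 and 193 CPM in members against 32.2 and 43.1 CPM in Plet1 cDC2. Mrc1, the mannose receptor, stood at 84.7 and 102 CPM against 17.7 and 23.8 CPM. Il1rl1, the receptor for interleukin 33, stood at 25.2 and 27.3 CPM against 5.91 and 6.34 CPM. Each of these was higher in members in both libraries by a log2 ratio between 2.09 and 2.60. Cd163, a scavenger receptor for haemoglobin complexes, differed by log2 3.58 and 2.43, and the chemokine Ccl9 by 2.78 and 1.87.

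On the lower side, Il22ra2, the soluble inhibitor of interleukin 22, stood at 1.43 and 2.67 CPM in members against 97.8 and 211 CPM in Plet1 cDC2, log2 ratios of -6.09 and -6.30. Itgae stood at 30.6 and 19.8 CPM against 196 and 176 CPM, and the adhesion molecule Epcam at 23.8 and 24.2 CPM against 138 and 134 CPM. Ly75, the uptake lectin DEC-205, stood at 4.83 and 8.90 CPM against 27.9 and 61.8 CPM. Ccr9, a gut-homing receptor, differed by log2 -2.01 and -2.91, and Dnase1l3, a secreted nuclease, by -2.62 and -2.02. None of the 10 genes of the MHC class II list was over 2-fold apart the same way in both libraries. Over all genes, 2.93% were higher and 1.34% lower, so a list this short would hold few. The list medians were 0.03 and 0.01 in log2, against 0.09 and 0.12 over all genes. Both groups were selected on H2-Ab1, which is in the list, so their likeness in it is not a finding. Of the Plet1 cDC2 marker list, 5 of 11 measured genes were over 2-fold lower. Plet1 itself is in that list, and both groups were selected on it.

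Against cDC1 the separation was wider: 603 of 9935 genes (6.07%) were over 2-fold higher in members in both libraries and 359 (3.61%) over 2-fold lower. Of 22 measured C-type lectins, 18 were higher and 3 lower, with medians of 2.89 and 2.43 in log2, where the medians over all genes were -0.07 and -0.07. That list holds Cd209a, which the rule used, and the markers Clec10a, Mgl2 and Cd209d. The natural killer receptor family gene Klra17 stood at 20.4 and 19.9 CPM in members against 0.944 and 0.591 CPM. Cd7, an immunoglobulin superfamily receptor, stood at 33.1 and 28.6 CPM against 1.89 and 2.56 CPM. Il1rl2, the interleukin 36 receptor, was higher by log2 3.99 and 3.27, and Ticam2, the adaptor that links Tlr4 to interferon induction, by 3.19 and 3.23. Cadm1, Tlr3 and Irf8, which mark cDC1, were lower: Irf8 stood at 20.2 and 35.1 CPM in members against 733 and 523 CPM, log2 ratios of -5.18 and -3.90. Of the 12 measured genes of the cDC1 list, which the rule used in part, 9 were lower and none higher.

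Against cells selected on Ly6c2 as monocytes, 1022 of 9882 genes (10.3%) were over 2-fold higher in members in both libraries and 840 (8.5%) over 2-fold lower. That group also held plasma cells, since the plasma cell list summed to 26344 and 78648 CPM in it, and Jchain and Mzb1 were among the 15 lowest genes. The cytotoxic lymphocyte genes Gzma, Nkg7 and Prf1 were among those 15 too. The natural killer and innate lymphoid list summed to 411 and 319 CPM in that group, against 85.7 and 99.7 CPM in members. Requiring at least 10 Lyz2 UMIs, an alternative chosen after seeing the data, left 183 and 425 of its 217 and 477 cells, with 183 and 746 CPM of plasma cell genes. The counts were then 1104 and 823. Members exceeded monocytes in H2-DMb2, a chaperone chain for peptide loading, at 302 and 284 CPM against 2.75 and 7.53 CPM, and in H2-Oa, which restrains that loading, at 170 and 136 CPM against 2.29 and 4.13 CPM. All 10 MHC class II genes were over 2-fold higher in members, which the rule had selected on one of them, H2-Ab1. Chil3 and Hp, which mark classical monocytes, stood at 0.179 and 1.68 CPM and at 1.07 and 2.18 CPM in members. Of 14 measured genes of the monocyte list, which holds the rule gene Ly6c2, 11 were over 2-fold lower in members and 0 higher. The list medians were -4.13 and -3.78 in log2. Members still carried some of these genes, with Ccr2 at 195 and 193 CPM and Lyz2 at 487 and 951 CPM.

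Members were not uniform. Clustering within them, with the rule genes left out, gave 6 clusters of 351, 305, 256, 143, 142 and 40 cells, numbered by size. They are described by their leading genes, which the clustering used. Cluster 1 was led by the chemokines Ccl5 (608 CPM against 74.8 in other members) and Ccl4 (930 against 161), and by the interferon-stimulated genes Oasl1 (178 against 36.3) and Isg15 (354 against 83.1). It was also highest in Ccl17, at 1373 against 370.3 CPM. Cluster 2 was led by lymphoid-type receptors: Cd7 stood at 83.9 against 15.03 CPM, Klra17 at 46.88 against 12.496 CPM, and Klrk1, which encodes NKG2D, at 141 against 62.8 CPM.

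Cluster 3 was led by Itgae, at 76.4 against 8.08 CPM, and Epcam, at 68.9 against 10.9 CPM, although all its cells had under 2 Plet1 UMIs. Its Ccr7, the receptor that guides dendritic cells to lymph nodes, reached 1277 CPM. Cluster 4 was led by the ubiquitin ligase gene March1, which turns over MHC class II (89.0 against 6.98 CPM), and the immediate-early factor Egr1 (489 against 58.2 CPM). It had Hspa1a at 2167 CPM and a median of 8837 UMIs, the lowest of the 6 clusters, and no UMI of the cytokine gene Il12b, against 106 CPM in other members. RNA of other cell types stood out in it: the fibroblast and endothelial list summed to 1310 CPM in its wild-type-labelled and 1079 CPM in its deficient-labelled cells, against 0 to 70.6 CPM in the other clusters. The epithelial list summed to 335 CPM in its wild-type-labelled cells. In its deficient-labelled cells it was 45.5 CPM, within the 8.46 to 99.5 CPM of the other clusters. Over all members, the fibroblast list's median log2 ratio of deficient-labelled over wild-type-labelled CPM was -0.16. With each gene's highest barcode left out, an alternative chosen after seeing the data, that median was 2.90, so single barcodes weighed in it. What RNA of these cell types adds to the cluster was not tested. Cluster 5 was led by cell cycle genes, such as Ccna2 at 74.99 against 0.382 CPM and Hist1h1b at 122 against 1.15 CPM, with a median of 18044.5 UMIs. Cluster 6 was led by myeloid genes, among them Csf3r, the granulocyte growth factor receptor, at 87.8 against 2.29 CPM, the coagulation factor F13a1 at 103 against 3.27 CPM, and Thbs1 at 585 against 27.6 CPM. Its Lyz2, the myeloid lysozyme, stood at 6724 CPM against 371 to 997 CPM in the other 5 clusters.

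**Figure D2:**
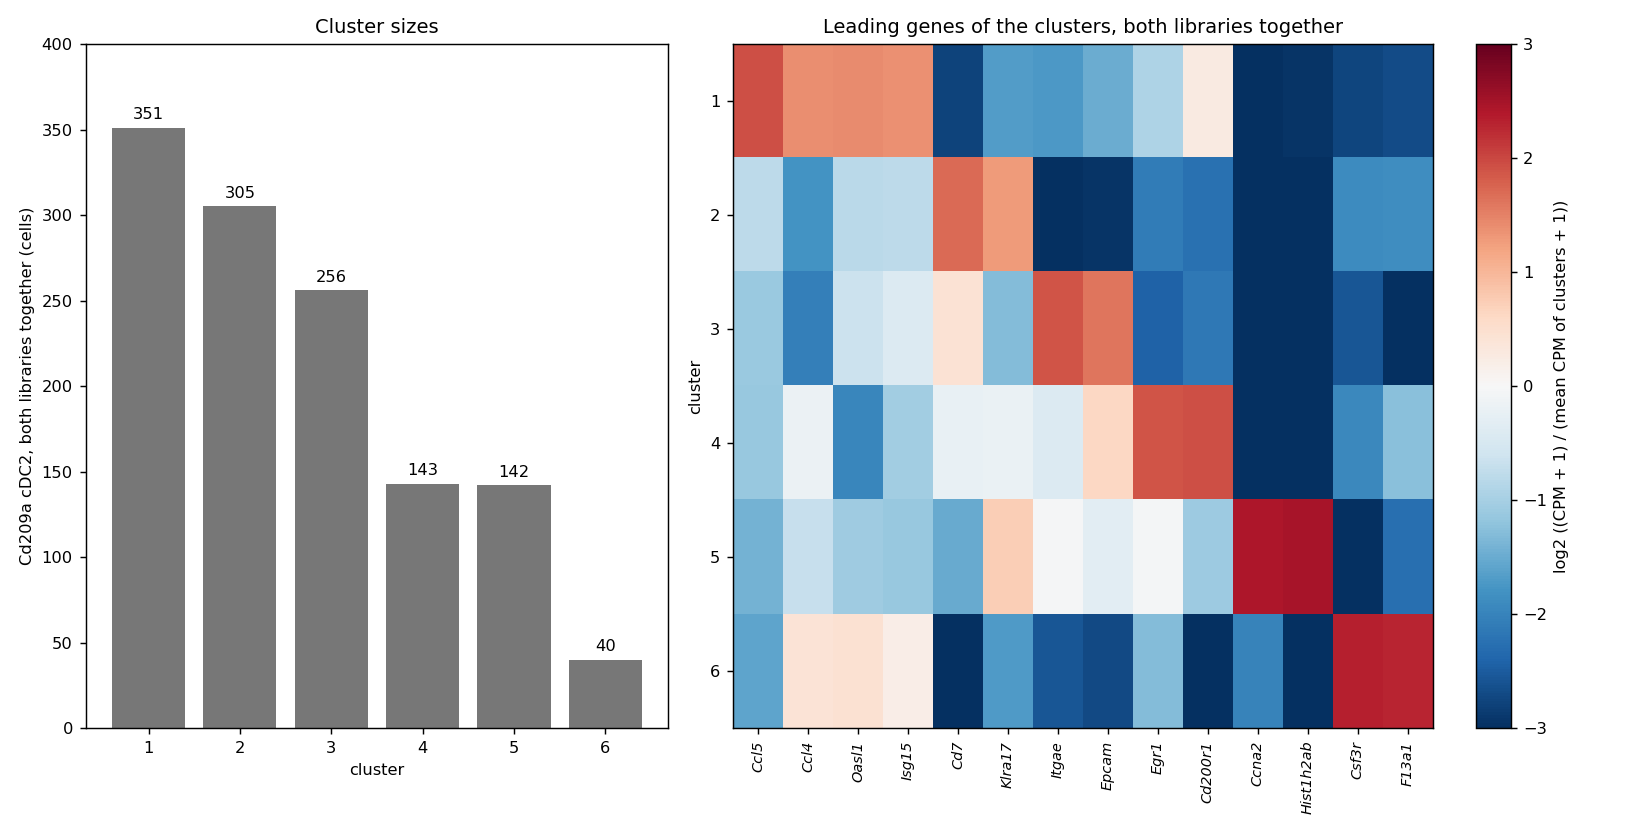
Left, cells in each cluster of Cd209a cDC2, both libraries together. Right, leading genes of the clusters as log2 of CPM plus 1 over the mean of the 6 clusters plus 1: each cluster stands out in its own genes, with cluster 5 set by cell cycle genes and cluster 6, of 40 cells, by Csf3r and F13a1.

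Markers of the label varied over these clusters. Clec10a stood at 357 CPM in cluster 2 and 130 CPM in cluster 3, and Mgl2 at 1209 CPM in cluster 1, 1001 CPM in cluster 4 and 299 CPM in cluster 2. Cd209a ranged only from 672 to 1045 CPM, though the rule had used it. Cluster sizes were not compared between libraries where leading genes differed between them: 7 of the 10 leading genes of cluster 1 and 8 of the 10 of cluster 6 were past 1.5-fold. In cluster 4, where none of the 10 was, the cluster's share of members was 12.1% (9.06 to 15.8) and 11.3% (9.24 to 13.6), overlapping intervals. That share covers the cells with the fibroblast and epithelial RNA given above.

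Between the libraries, 0 of 10 MHC class II and 0 of 12 costimulatory and coinhibitory genes of Cd209a cDC2 passed 1.5-fold. Lists this short would hold few such genes at the share over all genes, given next. Members of the interferon-stimulated, chemokine, heat shock, C-type lectin and transcription factor lists passed it. The count of each list is to be read beside that share. Of 9139 genes with at least 50 UMIs over the members, 517 (5.66%) were over 1.5-fold higher in the deficient-labelled library and 499 (5.46%) over 1.5-fold lower. The whole counting interval lay past 1.5-fold for 86 and 69 of them. The median log2 ratio of all 9139 genes was -0.02. All ratios below are log2 of deficient-labelled over wild-type-labelled CPM, with the 95% counting interval in brackets. With no replicate of either genotype, none of these differences can be told apart from a difference between 2 libraries.

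**Figure D3:**
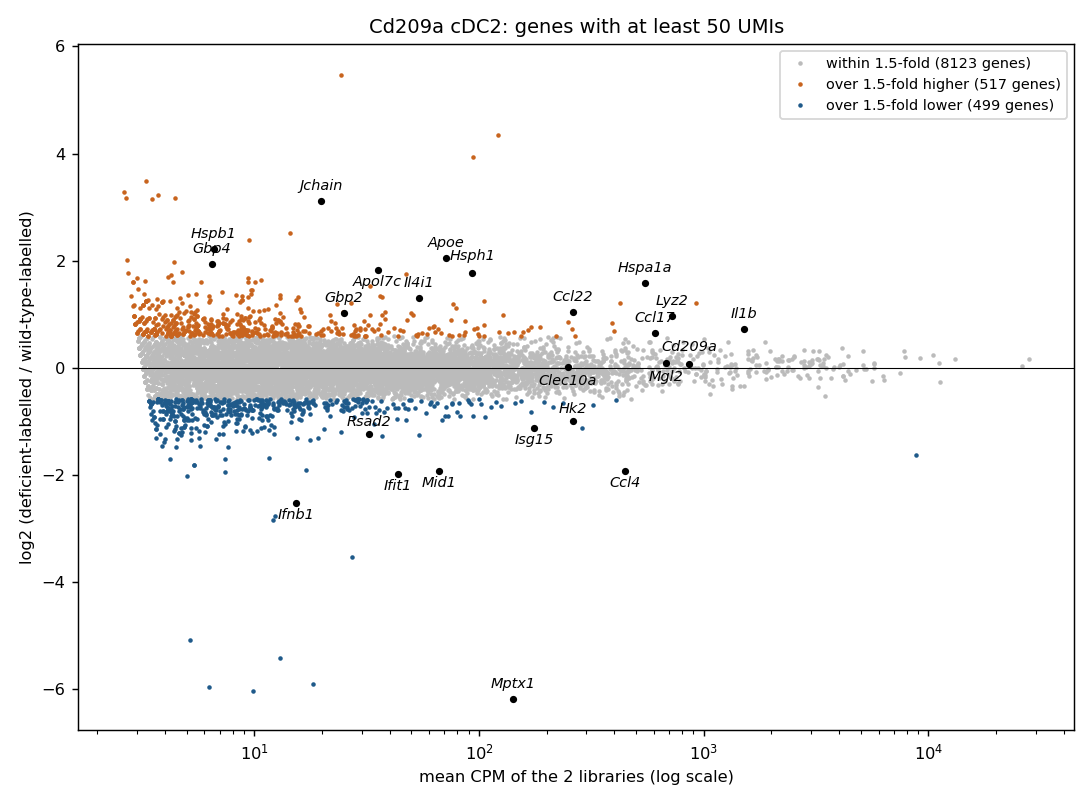
Each point is 1 gene with at least 50 UMIs in Cd209a cDC2: the horizontal axis is mean CPM (log scale) and the vertical axis the log2 ratio between libraries, with 517 genes higher and 499 lower by over 1.5-fold. Cd209a, Clec10a and Mgl2 lie near 0, Ifit1, Mid1 and Ccl4 near -2, and Hspa1a and Hsph1 above 1.5.

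Clec10a had a ratio of 0.02 (-0.07 to 0.12), Mgl2 of 0.10 (0.04 to 0.15) and Cd209d of -0.36 (-0.53 to -0.19). Of 17 measured cDC2 identity genes, 2 were over 1.5-fold higher, Clec4a1 and Cd209e, and none lower. Over all genes, 5.66% were higher and 5.46% lower. Irf4, the factor that cDC2 need, stood at 155 and 150 CPM, and Klf4 at 375 and 275 CPM. None of the 10 MHC class II genes passed 1.5-fold, with a list median of 0.01: H2-Aa stood at 9659 and 11361 CPM, Cd74, the invariant chain, at 26419 and 29735 CPM, and Ciita, the master regulator, at 105 and 101 CPM. The largest difference in that list was in H2-Oa, at -0.33 (-0.45 to -0.20). None of 12 costimulatory and coinhibitory genes passed either: Cd80 stood at 170 and 172 CPM, Cd86 at 200 and 250 CPM, and Cd274, which encodes PD-L1, at 189 and 194 CPM. Of 15 lysosomal and uptake genes, none passed. Among C-type lectins, 6 of 22 were higher and none lower, with a median of 0.27, led by Cd207 (langerin) at 0.537 and 4.85 CPM, which rests on few UMIs.

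Chemokines went both ways, with 3 of 15 measured genes higher and 4 lower. The T cell attractants were higher: Ccl17 stood at 472 CPM under the wild-type label and 741 CPM under the deficient label, 0.65 (0.58 to 0.71), and Ccl22 at 170 and 351 CPM, 1.05 (0.94 to 1.15). Thinned to 3000 UMIs, 25.5% (21.2 to 30.2) and 39.3% (36.0 to 42.7) of members had a Ccl17 UMI, intervals that did not overlap. In T cells, with a median of 5842 and 4653.5 UMIs, the thinned shares were 0 of 79 cells and 2.63%. Within clusters Ccl17 was alike where it was highest, at 1390 and 1365 CPM in cluster 1, and apart elsewhere, at 20.3 and 330 CPM in cluster 2 and 141 and 577 CPM in cluster 3. Cxcl3, a neutrophil attractant, stood at 21.5 and 72.7 CPM, 1.76 (1.48 to 2.05). Ccl4, which attracts T cells and monocytes, stood at 708 and 186 CPM, -1.93 (-2.00 to -1.85). Its thinned share was 34.2% (29.4 to 39.2) and 16.96% (14.5 to 19.7), and in cluster 1 it stood at 2068 and 377 CPM. Ccl2, Ccl5 and Cxcl10 were the other lower chemokines, at -0.84, -0.65 and -0.73. Ccl2 had -0.54 when cells were thinned to 3000 UMIs before selection. In Plet1 cDC2 Ccl17 also was higher, 1.11 (0.98 to 1.25), while in mature dendritic cells it was lower, -1.02 (-1.14 to -0.91). Of 5 other dendritic and myeloid groups, Ccl17 was over 1.5-fold higher in 2 and lower in 3, and Ccl22 higher in 3 and lower in 2.

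Interferon-stimulated genes went both ways. Of 29 measured, 11 were over 1.5-fold lower and 5 higher, with a median of -0.13. Ifit1, which binds foreign RNA, stood at 69.6 and 17.7 CPM, -1.98 (-2.24 to -1.72). Isg15, a ubiquitin-like modifier, stood at 241 and 111 CPM, -1.12 (-1.24 to -1.01). Rsad2, or viperin, stood at 45.5 and 19.4 CPM, -1.23 (-1.51 to -0.96), and Ifih1, a sensor of viral RNA, at 62.5 and 31.7 CPM. Ifnb1, the interferon beta gene itself, had 146 and 46 UMIs, or 26.1 and 4.55 CPM, -2.52, with 32.2% of the wild-type-labelled UMIs in 1 cell. Some guanylate-binding proteins, GTPases of the interferon gamma response, went the other way: Gbp2 stood at 16.5 and 33.4 CPM, 1.02 (0.68 to 1.37), Gbp3 at 10.2 and 21.9 CPM, and Gbp4 at 2.68 and 10.3 CPM, 1.94 (1.15 to 2.83). Gbp5 was over 1.5-fold higher too, while Gbp7 was within 1.5-fold and Irgm1, of the same list, was over 1.5-fold lower. Irf7 was higher at 7.70 and 12.1 CPM, with 42.6% of its deficient-labelled UMIs in 1 cell.

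Few members carried Ifit1. A thinned share of 8.68% (6.05 to 11.98) of wild-type-labelled and 3.32% (2.22 to 4.76) of deficient-labelled members had an Ifit1 UMI, and 28.4% (23.9 to 33.2) and 16.96% (14.5 to 19.7) an Isg15 UMI. For Isg15 the thinned shares were 15.2% and 19.5% in T cells and 6.98% and 4.46% in B cells, so the deficient-labelled share in members was no higher than that of T cells. Ifit1 in cluster 1 stood at 255 and 51.8 CPM, against 0.613 to 16.8 CPM in the other clusters. Ifit1 and Isg15 were over 1.5-fold lower in 5 of 5 other groups of dendritic and myeloid cells too, and Gbp4 was over 1.5-fold higher in 3 of the 4 with at least 20 UMIs. Gbp2 was lower in mature dendritic cells, at -1.40.

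The promoters of these genes are shown because lower and higher genes alike held a motif. Sequences are RefSeq promoters on GRCm38.p6, the last 150 bases before the annotated start, 5′ to 3′ along the gene, with capitals marking matches to the interferon-stimulated response element core GAAANNGAAA on either strand, merged where they overlap. Ifit1 is at chr19:34640739-34640888, plus strand, Isg15 at chr4:156200819-156200968, minus strand, Rsad2 at chr12:26456453-26456602, minus strand and Gbp2 at chr3:142620513-142620662, plus strand.
Ifit1: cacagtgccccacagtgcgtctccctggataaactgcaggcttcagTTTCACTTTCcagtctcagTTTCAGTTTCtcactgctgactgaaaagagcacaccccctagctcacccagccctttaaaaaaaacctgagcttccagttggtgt
Isg15: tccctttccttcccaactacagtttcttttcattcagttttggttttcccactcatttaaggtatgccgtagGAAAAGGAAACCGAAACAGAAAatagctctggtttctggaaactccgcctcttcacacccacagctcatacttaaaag
Rsad2: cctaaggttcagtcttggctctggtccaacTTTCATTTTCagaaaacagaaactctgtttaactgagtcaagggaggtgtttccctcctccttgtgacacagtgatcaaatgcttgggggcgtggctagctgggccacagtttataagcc
Gbp2: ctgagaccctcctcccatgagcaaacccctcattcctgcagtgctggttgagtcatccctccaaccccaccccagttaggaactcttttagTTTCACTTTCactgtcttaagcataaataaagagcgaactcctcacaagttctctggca
The first match began 104 bases before the start in Ifit1, 78 in Isg15, 120 in Rsad2 and 59 in Gbp2. Over windows of 300 bases from 250 before to 50 after the start, 7 of 9 lower interferon-stimulated genes with a sequence held a match, as did 3 of 4 higher genes and 3 of 9 within 1.5-fold. Of all 32851 promoters, 3.44% held one. The gamma-activated site TTCNNNGAA, a near palindrome read on either strand, occurred in 1 of 9 lower, 1 of 4 higher and 5 of 9 other genes, against 8.30% of all promoters. The match is a description of the letters and did not separate the lower from the higher genes.

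Heat shock chaperones were higher in the deficient-labelled library: 5 of 12 measured passed 1.5-fold and none was lower, with a median of 0.52. Hspa1a, the inducible HSP70, stood at 272 and 819 CPM, 1.59 (1.51 to 1.67), and its near copy Hspa1b at 256 and 590 CPM. Of the 100-base windows of the whole Hspa1a transcript, 47.1% also occur in Hspa1b, and reads within those windows cannot be assigned to 1 gene of the pair. Whether such windows lie at the 3′ end, from which the kit reads, was not examined. Hsph1, a partner of HSP70, stood at 42.4 and 144 CPM, 1.76 (1.56 to 1.97), and Hspd1, the mitochondrial HSP60, at 110 and 176 CPM. Hspb1 stood at 2.33 and 10.9 CPM, with 61.5% of its 13 wild-type-labelled UMIs in 1 cell. The endoplasmic reticulum chaperone Hspa5 stood at 1304 and 1317 CPM. Thinned, 21.8% (17.8 to 26.3) and 31.4% (28.3 to 34.7) of members had an Hspa1a UMI, against 5.06% and 24.2% of T cells. Hspa1a in cluster 1 was at 223 and 992 CPM and in cluster 4 at 1359 and 2687 CPM, but in cluster 2 at 99.0 and 102 CPM. In macrophages it stood at 867 and 875 CPM, 0.01 (-0.07 to 0.10), and in mature dendritic cells it was lower, -0.51 (-0.78 to -0.23), so the direction differed between groups.

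All 5 higher chaperones held the heat shock element core GAANNTTC in the same windows, as did 2 of 4 chaperones within 1.5-fold and 7.86% of all promoters. The Hspa1a promoter, at chr17:34972157-34972306, minus strand, is shown with that core in capitals, 104 bases before the start.
Hspa1a: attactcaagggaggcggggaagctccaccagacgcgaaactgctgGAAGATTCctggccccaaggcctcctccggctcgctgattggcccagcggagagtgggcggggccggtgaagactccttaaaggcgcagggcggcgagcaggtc

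Immediate-early genes, which code for factors made within minutes of a stimulus, were near the background, with 2 of 21 past 1.5-fold and a median of -0.18. Fos stood at 489 and 324 CPM, -0.60 (-0.67 to -0.52), a difference past 1.5-fold in only 8 of 15 alternative settings, and Egr3 at 28.3 and 15.2 CPM. Of the orphan nuclear receptors Nr4a1 to Nr4a3, the first of which the study names, Nr4a1 stood at 373 and 279 CPM, -0.42 (-0.50 to -0.34), Nr4a2 at 495 and 345 CPM, and Nr4a3 at 961 and 891 CPM, all within 1.5-fold. Nr4a1 was lower in 5 of 5 other dendritic and myeloid groups also, past 1.5-fold in 2. Cebpb, of the C/EBP family, stood at 178 and 320 CPM, 0.85 (0.75 to 0.95).

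Among 25 dendritic transcription factors, 5 were higher and 1 lower, with a median of 0.01. Besides Cebpb, Relb, of the alternative NF-kB pathway, stood at 73.4 and 123 CPM, and Irf8 at 20.2 and 35.1 CPM. With that thinning Irf8 had 0.57, short of 1.5-fold. Maf stood at 3.76 and 5.83 CPM. Notch2, a receptor that gut cDC2 need, was the lower one, at 79.8 and 50.7 CPM, -0.65 (-0.84 to -0.47). Of 16 NF-kB and feedback genes only Relb passed.

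Of genes of dendritic cell maturation, 5 of 9 measured were over 1.5-fold higher and 1, Ccl5, was lower, with a median of 0.74. Il4i1, an amino acid oxidase, stood at 31.1 and 76.9 CPM, 1.30 (1.07 to 1.55). Apol7c, an apolipoprotein L family gene, stood at 15.6 and 55.2 CPM, 1.83 (1.497 to 2.17), and Socs2, a cytokine signalling inhibitor, at 6.44 and 13.3 CPM. Ccr7 stood at 553 and 813 CPM, 0.55 (0.49 to 0.61), short of 1.5-fold. In cluster 3 Ccr7 stood at 781 and 1598 CPM and in cluster 1 at 702 and 583 CPM, so the direction differed between clusters. Of 16 genes of the interleukin 4 and TSLP response 5 passed and none was lower, among them Il7r, a subunit of the TSLP receptor, at 127 and 214 CPM, and Socs3 at 121 and 192 CPM. Ccl22 and Socs2 stand in both lists, so these counts overlap.

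Of 14 measured cytokines 4 were higher and 1 lower, with a median of 0.25, and of 12 pattern recognition receptors 2 were higher and 1, Ifih1, lower, with a median of -0.05. Il1b stood at 1140 and 1879 CPM, 0.72 (0.68 to 0.76), and a thinned 62.9% (57.8 to 67.8) and 75.8% (72.8 to 78.7) of members had a UMI. It was higher in 5 of 5 other dendritic and myeloid groups, past 1.5-fold in 2, and in B cells of the deficient-labelled library the thinned share was 24.8% against 2.33%. Cluster 1 had 1881 and 1965 CPM of Il1b, and cluster 3 had 742 and 1869 CPM. Cd14, the co-receptor for lipopolysaccharide, stood at 279 and 500 CPM, 0.84 (0.76 to 0.93), and Ly96, which encodes MD-2, at 9.31 and 16.8 CPM. Il23a, a subunit of interleukin 23, stood at 11.3 and 3.46 CPM, -1.70 (-2.34 to -1.09). Il10 stood at 50.5 and 72.6 CPM, Il6 at 65.9 and 77.5 CPM, and Il12b at 82.1 and 105 CPM, all within 1.5-fold.

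**Figure D4:**
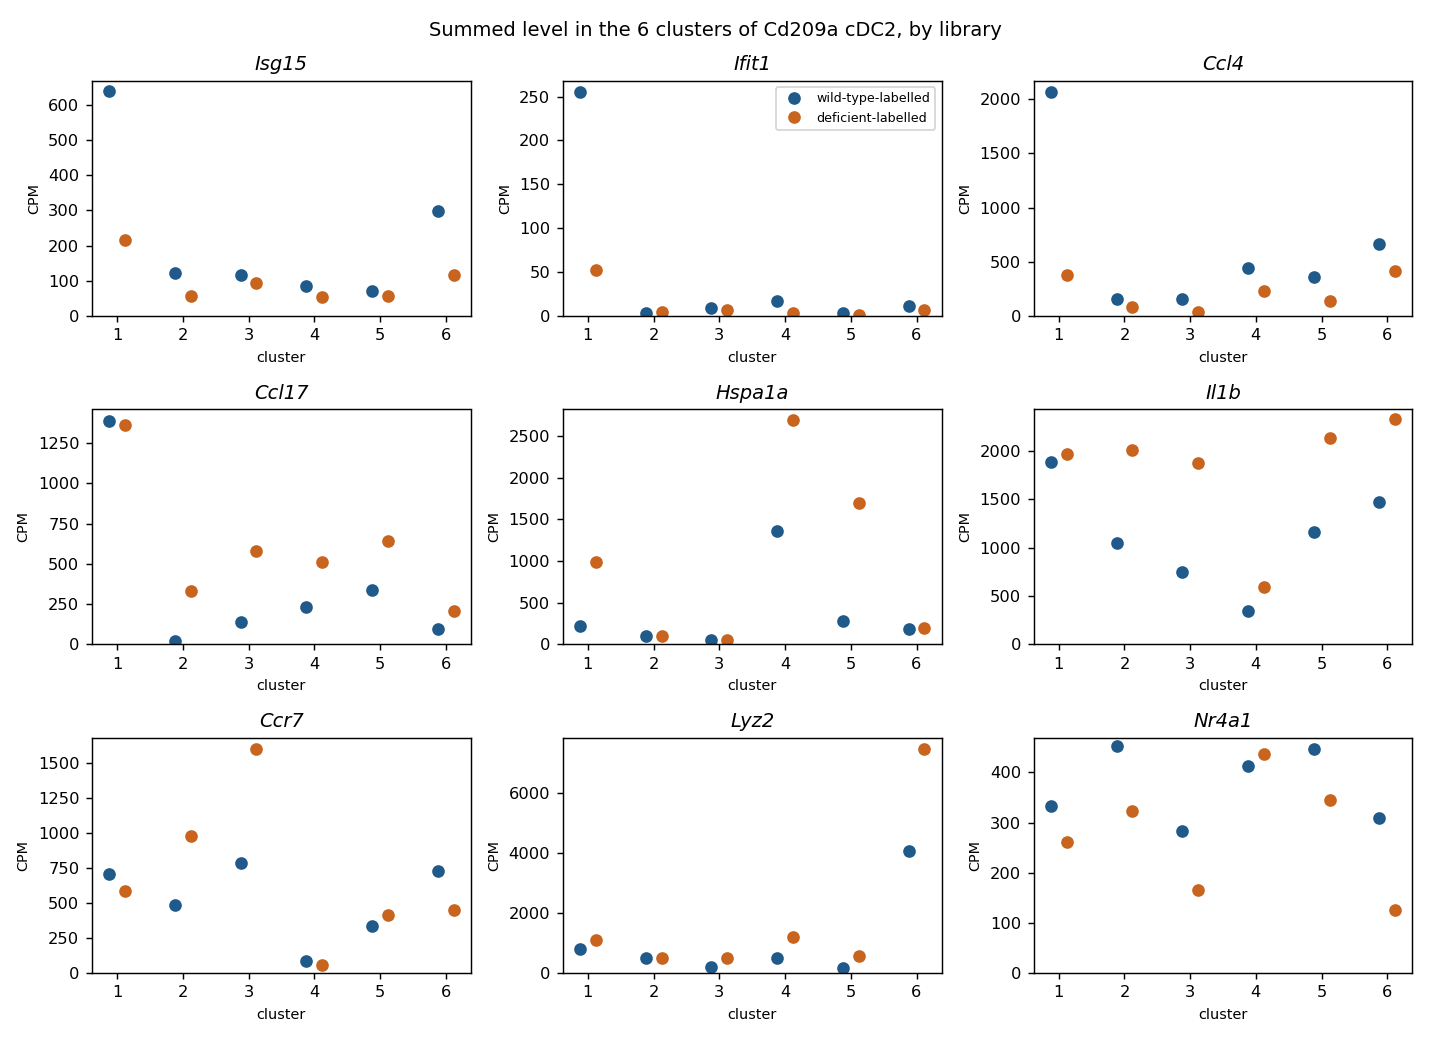
CPM of 9 genes in the 6 clusters of Cd209a cDC2, 1 point per library and cluster, linear axes. Isg15, Ifit1 and Ccl4 differ most in cluster 1, while Ccl17 and Il1b are alike there and differ in clusters 2 and 3.

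Some genes were lower in all 5 other dendritic and myeloid groups, a count that left out B cells and T cells. Mid1, a microtubule-associated ubiquitin ligase, stood at 105 and 27.5 CPM, -1.93 (-2.14 to -1.72), and was over 1.5-fold lower in 5 of 5 other groups. Hk2, the first enzyme of glycolysis, stood at 349 and 174 CPM, -1.004 (-1.10 to -0.91), and was lower in 5 of 5 other groups, past 1.5-fold in 3. It was lower in each of the 6 clusters too, with log2 ratios from -1.41 to -0.66. The 14 other measured glycolysis genes were within 1.5-fold, with Gapdh at 870 and 1006 CPM and Ldha at 295 and 290 CPM. Of 8 measured genes for butyrate sensing and transport, Slc16a3, a lactate exporter, was higher at 24.9 and 51.2 CPM, and Ffar2, a short-chain fatty acid receptor, lower at 14.3 and 7.32 CPM, as was the transporter Slc16a1 at 13.96 and 8.50 CPM, or a ratio of -0.46 after the same thinning. Aldh1a2, which makes retinoic acid, stood at 19.5 and 12.4 CPM, and was the only one of 9 retinoic acid genes past 1.5-fold, with -0.53 as a mean over cells. Of 20 cell cycle genes 4, all of the Mcm helicase, were lower and none higher, while Ccna2 stood at 12.3 and 12.95 CPM.

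**Figure D5:**
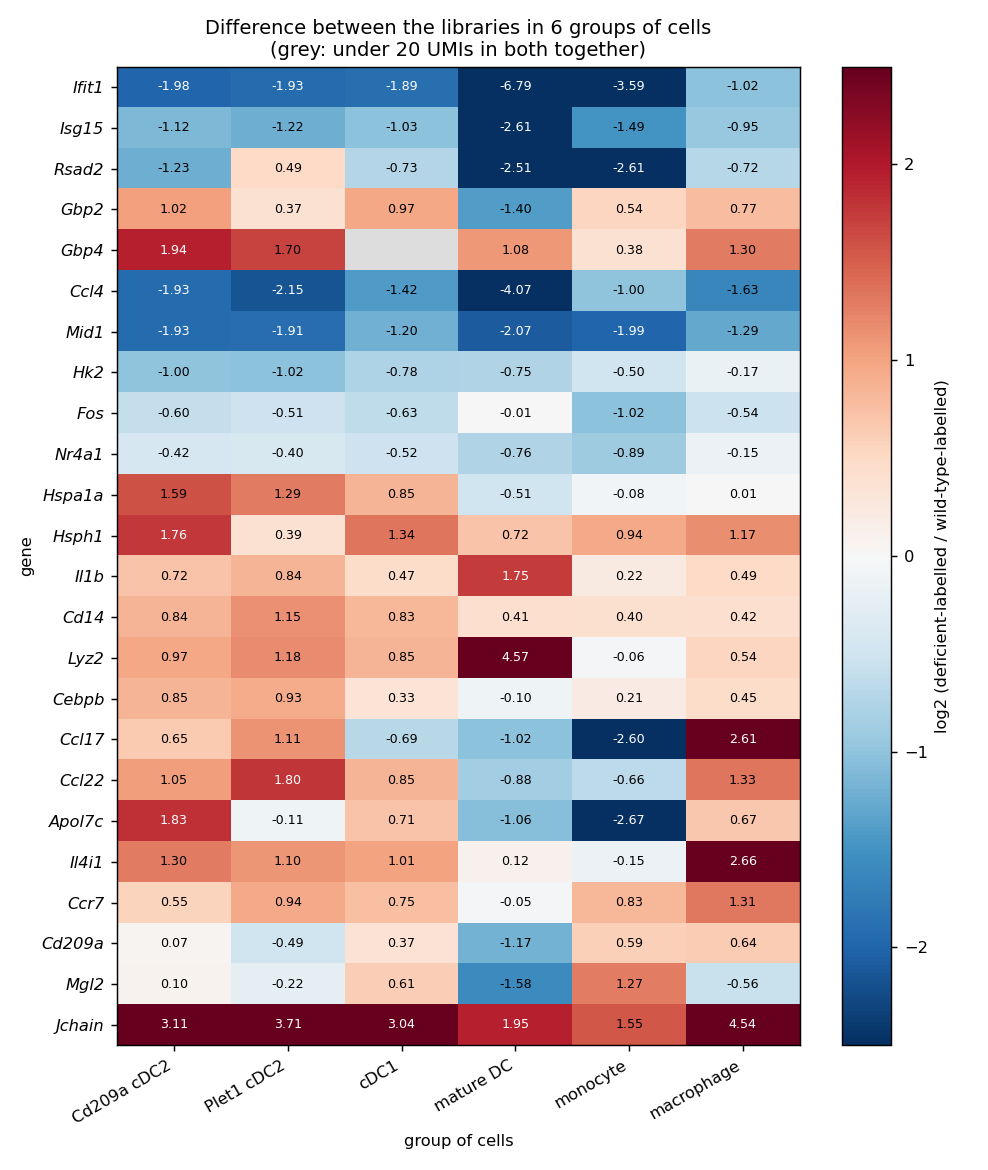
Log2 ratio of deficient-labelled over wild-type-labelled CPM of 24 genes in Cd209a cDC2 and 5 other groups of cells, with grey where under 20 UMIs were counted. Ifit1, Isg15, Ccl4 and Mid1 are negative in all 6 columns, and Ccl17 and Apol7c change sign between groups.

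RNA of other cell types moved with some of these results, and its part in them was not tested. Of 11 measured macrophage genes 6 were higher and 1 lower, the list summing to 306 and 470 CPM in members against 17140 and 19134 CPM in macrophages. Apoe, an abundant macrophage lipoprotein, stood at 27.7 and 115 CPM, 2.06 (1.81 to 2.31), and C1qb at 8.95 and 21.6 CPM, where the rule allowed under 10 C1q UMIs a cell. Lyz2 stood at 487 and 951 CPM, 0.97 (0.90 to 1.03), or 0.57 after thinning before selection, and was also higher in B cells, at 38.3 and 313 CPM, and in T cells, at 68.6 and 358 CPM. The monocyte list summed to 3459 and 3657 CPM, with 3 of 12 genes higher and 2 lower. Cd3d, Cd3e, Cd3g and Ms4a1 were at 0 by the rule. The B cell list summed to 53.7 and 55.0 CPM and the T cell list to 131 and 223 CPM, most of the latter from Il7r.

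Several of the largest ratios rested on single barcodes. Mptx1, a mucosal pentraxin, stood at 281 and 3.86 CPM, and 97.0% of its wild-type-labelled UMIs were in 1 barcode. Clca1 and Ang4, other epithelial secretory genes, had 96.0% and 96.3% of theirs in 1 barcode, and Retnlb 88.7%. With each gene's highest barcode left out in both libraries, an alternative chosen after seeing the data, Mptx1 had -1.42 in place of -6.19. S100a8, a neutrophil protein gene, stood at 4.30 and 24.4 CPM, with 65.2% of the deficient-labelled UMIs in 1 barcode, and at -0.33 without cluster 6. Adamdec1 stood at 1.07 and 47.4 CPM, in 6 and 79 cells. Ifit1, Isg15, Ccl4, Mid1, Hspa1a and Ccl22 were still past 1.5-fold in the same direction without the highest barcode, at -1.95, -1.15, -1.87, -1.92, 1.62 and 1.22.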

How the data were processed

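Cells of the colonic lamina propria were profiled by droplet 3′ RNA sequencing in 1 wild-type-labelled and 1 lncly6c-deficient-labelled library. The deposited values are raw UMI counts per gene and barcode, which the authors made with Cell Ranger. The submitters' processing notes name STAR 2.5.1b and mm10, and the headers name software 3.0.2. There were 31053 genes, and each barcode had at least 500 UMIs. Members were selected on raw UMIs by the rule given above, and 7 comparison groups by UMI rules of the same kind. The members and gene lists were chosen with earlier results of these data known.

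UMIs were summed over the cells of a group in each library and divided by the group's total to give CPM. With 1 library per group there was no test and no p-value. Ratios carry exact conditional binomial intervals, CPM exact Poisson intervals and shares exact Clopper-Pearson intervals, all at 95% and for counting error only. PCR copies were collapsed by UMI. A count of 0 was set at 3 counts. Genes with at least 50 UMIs were measured, and the call was a size, 1.5-fold between libraries and 2-fold in both libraries between groups. Shares of cells with a UMI were taken after thinning to 3000 UMIs. No doublet was removed in the main values. Left out by Scrublet score as an alternative were 54 and 278 barcodes, 9 and 26 of them members. The clusters used 1500 genes without the rule genes, 30 principal components, 15 neighbours and leiden at resolution 0.5 (scanpy 1.11.5, leidenalg 0.10.2, igraph 0.11.9, scikit-learn 1.9.0), a leading gene being found in at least 25% of the cells. Tables and intervals were made with scipy 1.17.1, pandas 2.3.3 and numpy 2.4.6 in Python 3.11.15, and plots with matplotlib 3.10.9. The calculation of ratios was tested on simulated data. The matrices' gene coordinates are from GENCODE on mm10.

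Named genes were the 5 markers, the rule genes, the Nr4a genes and Cebpb, up to 4 members of each of 37 lists with the largest ratios, the 10 genes with the highest and the 10 with the lowest ratio among those of at least 100 UMIs, the 15 highest and lowest against each compared group, and the 10 leading genes of each cluster. Immunoglobulin, T cell receptor, mitochondrial, ribosomal and predicted genes were left out of these ranks. Genes outside this rule were chosen after their values were seen: Gm42418, Lars2, Irf4, Zbtb46, Cd74, Ciita, Cd80, Cd274, Gbp2, Gbp3, Gbp5, Gbp7, Irgm1, Irf7, Hspd1, Hspa5, Maf, Notch2, Il6, Il10, Gapdh, Ldha and, outside the clusters they lead, Ccl5, Cxcl10 and Ccna2. Some genes of the lists are counted but not reported by name here. The alternatives were 13 planned settings and 3 added after seeing the data.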

Additional observations from a re-analysis of the deposited data

Results flagged for a closer look

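Several genes were past 1.5-fold in one direction in Cd209a cDC2 and in the opposite direction in a neighbouring dendritic group, with both counting intervals clear of 0. These differences between groups of cells were not tested, since each rests on 1 library per genotype. Ccl17 had a log2 ratio of 0.65 in Cd209a cDC2 and -0.69 (-0.85 to -0.53) in cDC1. Ccl2, a monocyte attractant, had -0.84 in Cd209a cDC2 and 0.92 (0.28 to 1.60) in cDC1. Acod1, which makes itaconate, had 0.82 and, in cDC1, -0.83 (-1.56 to -0.09). Without the 40 cells of cluster 6, Acod1 had -0.0081 in Cd209a cDC2, so the opposite directions rest on those cells. Csf3r had 0.90 and, in cDC1, -2.15 (-3.20 to -1.16), with 26 and 14 UMIs there.

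The neutrophil genes S100a8 and S100a9 had 2.51 and 1.20 in Cd209a cDC2. In Plet1 cDC2 they had -3.98 and -4.39, and in cDC1 -3.95 and -4.36. Without cluster 6 they had -0.33 and -1.23 in Cd209a cDC2, the same direction as in the other groups, and S100a9 also reversed at 4 Cd209a UMIs (-0.046), without high doublet scores (-0.92) and thinned before selection (-1.09). Cx3cr1, the fractalkine receptor, had -0.79 in Cd209a cDC2 and 3.41 (1.78 to 5.73) in Plet1 cDC2, where the wild-type-labelled library had 3 UMIs. With cells thinned before selection Cx3cr1 had -0.13 in Cd209a cDC2, short of 1.5-fold. Cd209e had 1.14 in Cd209a cDC2 and -4.85 (-10.23 to -2.18) in Plet1 cDC2, where 17 and 1 UMIs were counted. Lum, a fibroblast matrix gene, had -1.33 in Cd209a cDC2, where all 54 wild-type-labelled UMIs were in 1 barcode, and 3.33 in Plet1 cDC2, from 2 and 34 UMIs. In cDC1 Lum had 0 and 33 UMIs, a log2 ratio of 2.20 with the count of 0 set at the floor of 3 UMIs.

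Barcodes above the mitochondrial limit were not used in the report. Of 200 such barcodes in the deficient-labelled library with at least 200 genes, 3 met the UMI rule of Cd209a cDC2, 1.5% (0.310 to 4.32). In the wild-type-labelled library 1 of 325 did, 0.308% (0.00779 to 1.702), and the intervals overlapped.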

How the results depend on the processing

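The share of Cd209a cDC2 among barcodes, 14.8% wild-type-labelled and 14.4% deficient-labelled, moved with the Cd209a threshold, to 16.8% and 16.9% at 1 UMI and to 12.3% and 11.6% at 4 UMIs. With at least 2000 UMIs a barcode it was 19.4% and 16.3%, and with cells thinned to 3000 UMIs before selection the deficient-labelled share was 12.6%. The counts of genes past 1.5-fold between libraries, 517 higher and 499 lower, followed the number of genes measured: 891 and 799 with at least 20 UMIs, and 174 and 158 with at least 200. Against Plet1 cDC2 the counts of 284 and 130 became 131 and 70 with at least 200 UMIs. Thinning before selection turned the split between libraries to 611 and 355. All other settings kept these counts within 1.5 times.

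Of 76 named genes past 1.5-fold, 54 stayed past it in the same direction under all settings that gave them a value, up to 15, and 68 kept their direction. Those that reversed were mostly of other cell types. S100a9 reversed at 4 Cd209a UMIs (-0.046), without high doublet scores (-0.92), thinned (-1.09) and without cluster 6 (-1.23). Thinning reversed Agr2 (1.77), Muc2 (0.997) and Spink4 (1.02), the doublet scores reversed Col1a2 (-0.54), and leaving out the highest barcode reversed Lum (2.59). Without cluster 6, S100a8 (-0.33), Acod1 (-0.0081) and the neutrophil list median (-0.33, from 1.05) reversed. The causes were not tested. No paired analysis was possible because each genotype is 1 library. Depth limits genes of few UMIs, such as Gbp4 with 15 wild-type-labelled UMIs, whose interval spans 1.15 to 2.83.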
